A study of Mus musculus with 12 samples.

Results

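The Hippo kinase cascade was followed at the level of mRNA in mouse liver through 10 genes: *Stk3*, *Stk4*, *Sav1*, *Lats1*, *Lats2*, *Mob1a*, *Mob1b*, *Nf2*, *Wwc1* and *Taok1*. The rule took them by name and used no measured value, though the list was drawn up with earlier results of these data known. They are 10 of the 25676 genes in the table. Whole livers came from C57BL/6 mice aged 3 to 4 months, 6 wild-type (WT) mice and 6 mice labelled as a Foxa3-Cre knockout of YAP1 (KO). Each genotype had 3 males and 3 females, which gave 4 groups of 3 libraries, 1 library per mouse. In the KO mice the *Foxa3* promoter drives Cre recombinase. That promoter is active in the endoderm that gives rise to hepatocytes and bile duct cells, so the other cells of the liver keep the gene. The labels do not say whether the WT mice carried Cre or floxed alleles.

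In this cascade the MST kinases, encoded by *Stk3* and *Stk4*, act with the scaffold SAV1 to activate the kinases LATS1 and LATS2, which work with the MOB1 adaptors. The LATS kinases phosphorylate YAP and its relative TAZ, which keeps these co-activators out of the nucleus or marks them for degradation. In liver the cascade is known for its control of organ size and of biliary and hepatocyte identity. Its activity is set mainly by phosphorylation, which mRNA levels do not report.

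Expression was deposited as TPM (a length-corrected share of the transcripts of each library, scaled to a fixed sum). With a fixed sum, a change in some genes can move the shares of all others. On the deposited values the median log2 difference between KO and WT over 12278 tested genes was 0.35. Which genes lie behind this shift was not tested. Because of the shift, the main scale was TPM rescaled so that the typical gene has the same level in each library. On rescaled TPM that median was -0.03. "Called" below means a Benjamini-Hochberg adjusted p under 0.05 in limma over all tested genes. On rescaled TPM 39.3% of tested genes were called between the genotypes, 21.3% higher and 18.0% lower in KO. On deposited TPM 54.9% were called, with 6153 genes (50.1%) higher and 592 lower. In the genotype comparison over both sexes each of the 10 genes is given on both scales.

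The estimated reads assigned to genes ranged from 19654926 to 27832208 per library. The cascade genes had from 142 reads (*Stk3*, lowest library) to 2290 reads (*Wwc1*, highest library). At the lowest count of each gene the counting error ranged from a coefficient of variation of 8.39% for *Stk3* to 2.95% for *Wwc1*. All 10 genes passed the filter on low values. *Yap1*, the targeted gene, had 29.5 ± 4.46 deposited TPM in WT (SD, n = 6) and 2.02 ± 0.775 in KO (SD, n = 6). The groups were far apart, with 0.994 to 3.11 in KO and 23.0 to 34.9 in WT (log2 difference -3.36, exact permutation within sex, two-sided p = 0.005, the smallest this design allows). Among KO libraries male 3 stood apart: it had the highest rescaling factor and its 10 cascade genes summed to 195.5 deposited TPM, the highest of all 12 libraries. On rescaled TPM its sum was 148.3, the highest in KO but below the highest WT male at 162.1. Early animal numbers (74 and 75) belonged to KO female 1 and WT female 3, and the other 10 mice had higher numbers.

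In WT liver *Wwc1*, which encodes the scaffold KIBRA, had the highest level of the 10 genes, 34.0 ± 6.24 deposited TPM (SD, n = 6). Its lowest WT library, at 22.4, was above the highest library of *Mob1a*, the next gene in order, which had 15.7 ± 3.20 TPM. Below it followed *Nf2* (11.7 ± 1.99), *Mob1b* (11.4 ± 1.73), *Lats1* (9.02 ± 1.02), *Sav1* (7.80 ± 1.30), *Taok1* (7.25 ± 0.657), *Stk4* (6.62 ± 0.961), *Stk3* (5.31 ± 0.922) and *Lats2* (4.45 ± 0.584), all as deposited TPM. From *Mob1a* down, each gene's WT range overlapped that of the next in order. In KO *Wwc1* again had the highest mean, 32.2 ± 13.0 TPM, but its range now overlapped that of *Mob1a* (24.4 ± 4.52). *Sav1* was the third in KO with 13.6 ± 1.91 TPM and *Lats2* was again lowest with 5.67 ± 0.933.

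**Figure D1:**
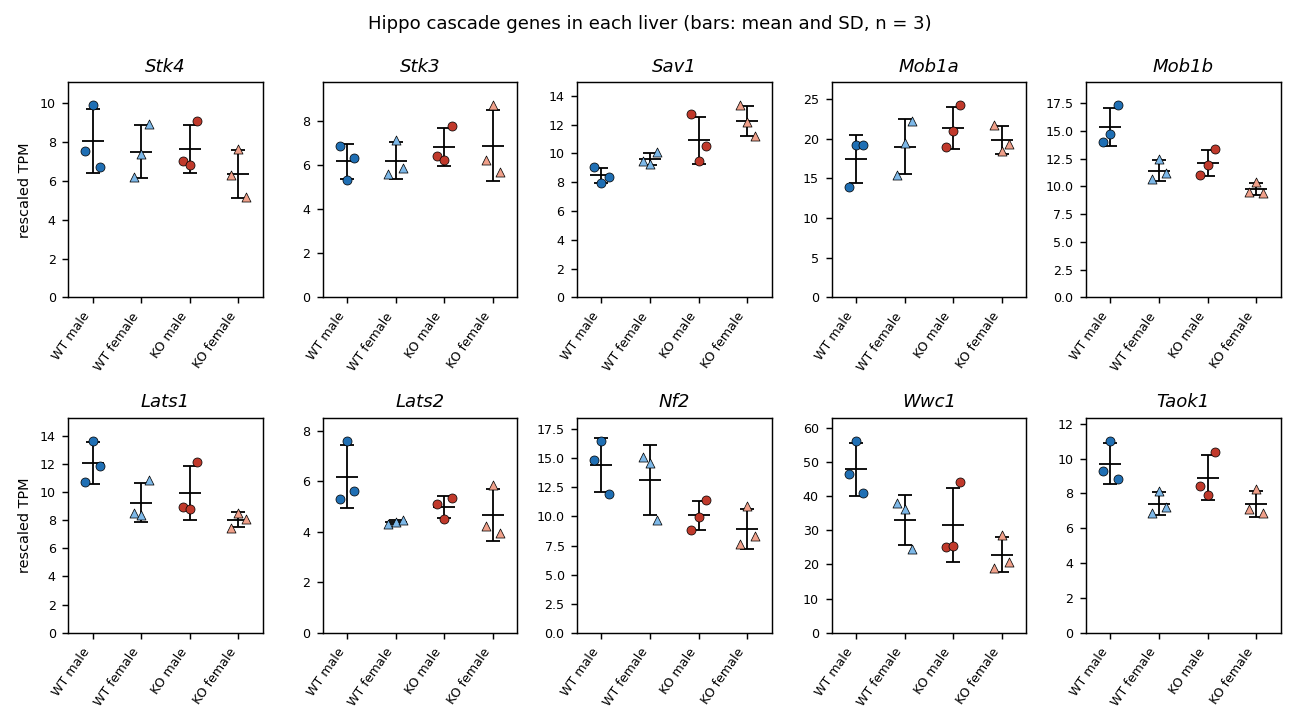
Rescaled TPM (vertical axis, linear from 0) of the 10 cascade genes in each of the 12 libraries, by group, with bars for the mean and SD of 3 mice. KO points of Sav1 lie above, and those of Mob1b below, the WT points of the same sex, and KO male 3 is high for Lats1 and Wwc1.

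Between the genotypes, with sex as a covariate, 4 of the 10 genes were called on rescaled TPM: *Sav1* rose, and *Mob1b*, *Nf2* and *Wwc1* fell in KO. The same 4 genes had an unadjusted p under 0.05, as did 47.8% of all tested genes. In whole liver fewer cells of a type and less RNA per cell cannot be told apart, and this holds for every difference given here. The share of 4 in 10 was close to the 39.3% of all tested genes. The median log2 difference of the 10 genes was -0.11, against -0.03 over all tested genes, with 3 positive and 7 negative values between -0.57 and 0.32. For none of the 10 were the 6 KO values clear of the 6 WT values, a separation found for 18.9% of tested genes. Separations of 3 from 3 mice within a sex are given below as a description only. How many of all tested genes separate in that way was not counted.

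On deposited TPM 5 of the 10 genes were called, all higher in KO: *Stk3*, *Sav1*, *Lats2*, *Mob1a* and *Taok1*. Over all tested genes 50.1% were called higher on that scale, and the 10 genes had a median log2 difference of 0.28. *Sav1* and *Mob1a* had KO values clear of the WT values there, as did 30.6% of tested genes. *Sav1* was the one gene called in the same direction on both scales. The authors' deposited table, which gives its own comparison with an FDR, had 3 of the 10 genes below 0.05, where 24.2% of its 17332 genes were. In the authors' deposited table the log fold change was 0.46 for *Sav1* (FDR 0.03), -0.68 for *Nf2* (FDR printed as 0) and -0.84 for *Wwc1* (FDR printed as 0). All 10 signs in the authors' deposited table were those found on rescaled TPM. The authors' comparison came with the same libraries, and their notes name edgeR, which can also adjust for the make-up of each library. The shared signs are therefore no independent check of the rescaling.

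**Figure D2:**
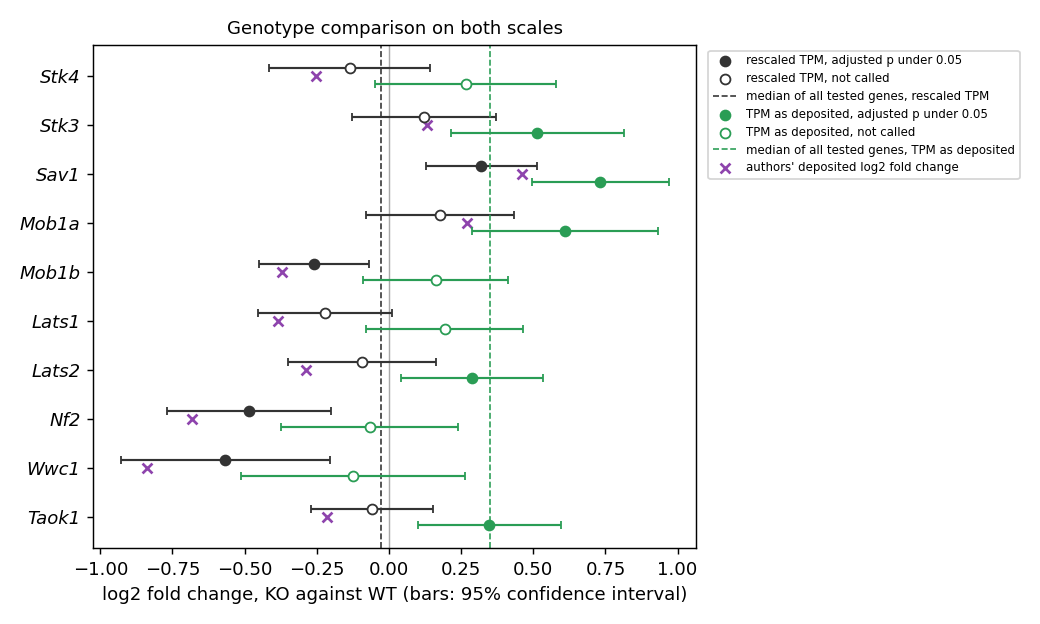
Log2 difference between KO and WT (horizontal axis) of each cascade gene with its 95% interval, on rescaled and on deposited TPM, filled where the adjusted p was under 0.05, with crosses for the authors' deposited values and dashed lines for the median of all tested genes. Sav1, Stk3 and Mob1a lie above 0 on both scales, and of these only Sav1 is filled on both. Nf2 and Wwc1 lie below 0 on both scales, and Stk4, Lats1, Lats2, Mob1b and Taok1 lie on opposite sides of 0 on the 2 scales.

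*Sav1* (ENSMUSG00000021067, chr12:69965012-69987002, minus strand in GENCODE release M21, build GRCm38, as for the genes that follow) encodes the scaffold that joins the MST kinases to their substrates. Its rescaled TPM were 9.06, 7.97 and 8.38 in WT males and 12.7, 9.48 and 10.5 in KO males. In WT females they were 9.48, 9.29 and 10.1, and in KO females 13.3, 12.2 and 11.2. Every KO mouse was above every WT mouse of its own sex, while across the sexes KO male 2 (9.48) lay below WT female 3 (10.1). The means were 9.04 ± 0.765 in WT and 11.6 ± 1.43 in KO (SD, n = 6 each). The log2 difference was 0.32 (SE 0.0893, 95% interval 0.13 to 0.51, limma adjusted p = 0.0122), and on deposited TPM 0.73 (limma adjusted p = 1.01e-04).

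*Stk3* (ENSMUSG00000022329, chr15:34875496-35178921, minus strand) and *Stk4* (ENSMUSG00000018209, chr2:164070322-164155524, plus strand) encode MST2 and MST1, the kinases at the head of the core. *Stk3* rescaled TPM were 6.84, 5.29 and 6.32 in WT males, 5.59, 7.14 and 5.85 in WT females, 6.40, 6.23 and 7.78 in KO males and 6.24, 8.69 and 5.68 in KO females. The genotypes overlapped in both sexes, and *Stk3* was not called (log2 difference 0.12, SE 0.115, 95% interval -0.13 to 0.37, limma adjusted p = 0.429). On deposited TPM *Stk3* was called higher in KO (log2 difference 0.51, limma adjusted p = 0.00702).

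*Stk4* rescaled TPM were 7.55, 9.90 and 6.74 in WT males, 6.21, 7.40 and 8.94 in WT females, 7.03, 6.82 and 9.08 in KO males and 6.29, 7.65 and 5.19 in KO females. These values overlapped between the genotypes in both sexes, with WT male 2 the highest library. The log2 difference was -0.14 (SE 0.129, 95% interval -0.42 to 0.14, limma adjusted p = 0.434), and it had the opposite sign, 0.27, on deposited TPM (limma adjusted p = 0.135).

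*Lats1* (ENSMUSG00000040021, chr10:7681214-7716460, plus strand) and *Lats2* (ENSMUSG00000021959, chr14:57689662-57758388, minus strand) encode the kinases that phosphorylate YAP and TAZ. *Lats1* rescaled TPM were 10.7, 13.6 and 11.8 in WT males, 8.53, 8.38 and 10.8 in WT females, 8.91, 8.76 and 12.1 in KO males and 7.48, 8.55 and 8.06 in KO females. In males 2 of the 3 KO mice were below all WT mice and KO male 3 was among them. The log2 difference was -0.22 (SE 0.108, 95% interval -0.45 to 0.01, limma adjusted p = 0.121), and 0.19 on deposited TPM (limma adjusted p = 0.209).

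*Lats2*, which is also a known transcriptional target of YAP in feedback on the pathway, was the least abundant of the 10. Its rescaled TPM were 5.30, 7.61 and 5.63 in WT males, 4.30, 4.38 and 4.47 in WT females, 5.11, 4.52 and 5.36 in KO males and 4.21, 5.87 and 3.95 in KO females. The genotypes overlapped in both sexes; WT male 2 was highest. *Lats2* was not called on rescaled TPM (log2 difference -0.09, SE 0.119, 95% interval -0.35 to 0.16, limma adjusted p = 0.562). On deposited TPM it was called higher in KO (log2 difference 0.29, limma adjusted p = 0.0451).

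*Mob1a* (ENSMUSG00000043131, chr6:83326016-83343776, plus strand) and *Mob1b* (ENSMUSG00000006262, chr5:88720855-88764220, plus strand) encode the adaptors that bind and activate the LATS kinases. *Mob1b* rescaled TPM were 13.99, 14.7 and 17.3 in WT males and 11.0, 11.9 and 13.4 in KO males. In females they were 10.7, 12.4 and 11.2 in WT and 9.54, 10.4 and 9.44 in KO. Every KO mouse was below every WT mouse of its sex, while WT females overlapped KO males. The means were 13.4 ± 2.48 in WT and 11.0 ± 1.52 in KO (SD, n = 6 each). The log2 difference was -0.26 (SE 0.0883, 95% interval -0.45 to -0.07, limma adjusted p = 0.0331). It was 0.16 on deposited TPM (limma adjusted p = 0.253), and on rescaled TPM the call was lost without WT male 3, WT female 2, KO male 1, KO male 2, KO female 1 or KO female 3, each left out alone. It was also lost with upper quartile scaling (limma adjusted p = 0.0619) and without the sex covariate (limma adjusted p = 0.128). Over the 12 fits that left out 1 library the log2 difference ran from -0.29 to -0.22 and the limma adjusted p from 0.0309 to 0.0830.

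*Mob1a* rescaled TPM were 13.97, 19.2 and 19.2 in WT males, 15.4, 19.4 and 22.2 in WT females, 19.0, 20.9 and 24.2 in KO males and 21.7, 18.4 and 19.4 in KO females. The genotypes overlapped in both sexes, and *Mob1a* was not called (log2 difference 0.18, SE 0.119, 95% interval -0.08 to 0.44, limma adjusted p = 0.257). It was called higher in KO on deposited TPM (log2 difference 0.61, limma adjusted p = 0.0037).

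*Nf2* (ENSMUSG00000009073, chr11:4765845-4849536, minus strand) encodes merlin, a membrane-associated activator of the LATS kinases and a tumour suppressor. Its rescaled TPM were 14.9, 16.5 and 11.9 in WT males and 8.88, 9.998 and 11.4 in KO males. In females they were 15.2, 14.6 and 9.72 in WT and 7.64, 10.9 and 8.31 in KO. The males were separate, and the females overlapped through WT female 3. The means were 13.8 ± 2.49 in WT and 9.52 ± 1.48 in KO (SD, n = 6 each). *Nf2* fell by 0.48 on the log2 scale (SE 0.132, 95% interval of the log2 difference -0.77 to -0.20, limma adjusted p = 0.0105). On deposited TPM the log2 difference was -0.07 (limma adjusted p = 0.710).

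*Wwc1* (ENSMUSG00000018849, chr11:35838400-35980527, minus strand) encodes KIBRA, which binds merlin and SAV1 and promotes LATS activation. Its rescaled TPM were 46.4, 56.2 and 40.9 in WT males and 25.2, 25.3 and 44.0 in KO males. In females they were 38.0, 36.2 and 24.6 in WT and 19.0, 28.6 and 20.7 in KO. Both sexes overlapped, the males through KO male 3 and the females through WT female 3. The means were 40.4 ± 10.6 in WT and 27.1 ± 8.94 in KO (SD, n = 6 each). *Wwc1* fell by 0.57 on the log2 scale (SE 0.168, 95% interval of the log2 difference -0.93 to -0.20, limma adjusted p = 0.0167). Without KO male 3 the log2 difference was -0.67 (limma adjusted p = 0.0047), and on deposited TPM with all libraries it was -0.12 (limma adjusted p = 0.575).

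*Taok1* (ENSMUSG00000017291, chr11:77529162-77607815, minus strand) encodes a kinase that phosphorylates the MST kinases. Its rescaled TPM were 9.28, 11.0 and 8.84 in WT males, 6.86, 8.14 and 7.25 in WT females, 8.45, 7.88 and 10.4 in KO males and 7.11, 8.24 and 6.86 in KO females. The genotypes overlapped in both sexes (log2 difference -0.06, SE 0.0979, 95% interval -0.27 to 0.15, limma adjusted p = 0.664). On deposited TPM *Taok1* was called higher in KO (log2 difference 0.35, limma adjusted p = 0.0204).

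Because YAP acts on DNA through TEAD factors, the promoter windows of the cascade genes were searched for the TEAD motif GGAATG on both strands (its reverse complement is CATTCC, and the motif does not overlap itself). The windows run from 250 bases before to 50 bases after each annotated start (RefSeq, GRCm38.p6). For 9 of the 10 genes a window was given, 11 windows in all, of which 3 held the motif, and 14.7% of all 32851 windows held it. The stretches around the 3 matches are shown, with the motif in capitals, because they are the only matches in these windows; they belong to *Sav1*, *Mob1a* and the YAP target *Lats2*. They lie at chr12:69987089-69987168 on the minus strand, chr6:83325789-83325849 on the plus strand and chr14:57746100-57746179 on the minus strand, in that order.
Sav1: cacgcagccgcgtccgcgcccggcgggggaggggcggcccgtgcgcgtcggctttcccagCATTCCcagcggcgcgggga
Mob1a: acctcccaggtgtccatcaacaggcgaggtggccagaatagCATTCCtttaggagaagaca
Lats2: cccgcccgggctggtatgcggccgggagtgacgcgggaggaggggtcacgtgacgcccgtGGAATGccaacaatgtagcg
The match lay before the annotated start in *Sav1* and *Mob1a* and just after it in *Lats2*. A match describes these letters and is not a measured binding site. The other windows had no match, which says only that these letters are not in the windows searched. The *Lats2* window lies inside the span of the gene in GENCODE.

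Ratios of paralogs within 1 library do not depend on how libraries are scaled, so the 3 pairs in the cascade were also compared as ratios. The ratio of *Mob1b* to *Mob1a* TPM was 1.00, 0.766 and 0.900 in WT males and 0.581, 0.570 and 0.554 in KO males. In females it was 0.694, 0.641 and 0.503 in WT and 0.439, 0.564 and 0.488 in KO. All KO males lay below all WT males, and the females overlapped. The mean ratio was 0.751 ± 0.180 in WT and 0.532 ± 0.0565 in KO (SD, n = 6 each). The log2 ratio differed by -0.47 between the genotypes (-0.64 in males and -0.30 in females), with an exact permutation p of 0.01, two-sided, and 0.03 adjusted over the 3 pairs. Leaving out 1 library gave differences from -0.54 to -0.42, and the adjusted exact permutation p rose to 0.06 without WT female 1, WT female 2 or KO female 1.

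The ratio of *Stk3* to *Stk4* was 0.816 ± 0.178 in WT (0.535 to 0.965) and 0.984 ± 0.112 in KO (0.857 to 1.14). The ranges overlapped. The log2 ratio was higher in KO by 0.29, which did not pass the correction (exact permutation p = 0.065, two-sided, adjusted 0.0975). Leaving out 1 library gave differences from 0.16 (without WT male 2) to 0.37 (without WT male 3), with adjusted exact permutation p from 0.0225 (without WT male 3) to 0.2475. The ratio of *Lats2* to *Lats1* was 0.494 ± 0.0491 in WT and 0.545 ± 0.0847 in KO (log2 difference 0.13, exact permutation p = 0.27, two-sided, adjusted 0.27). Leaving out 1 library moved it between 0.069 (without KO female 2) and 0.19 (without KO female 3), with adjusted exact permutation p from 0.11 to 0.52.

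**Figure D3:**
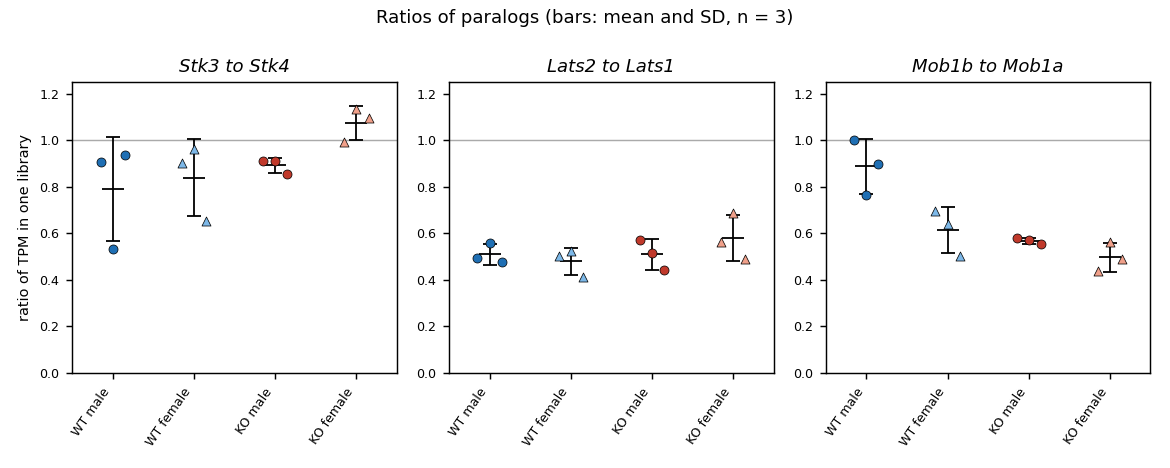
Ratio of the TPM of 2 paralogs in each library (vertical axis, linear from 0) by group, with bars for the mean and SD of 3 mice. The ratio of Mob1b to Mob1a lies between 0.554 and 0.581 in KO males and at 0.766 or above in WT males.

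Set against the geometric mean of the other 9 cascade genes in the same library, which is also free of the scaling, the genes fell into an order that is given as a description with no test. *Sav1* was higher in KO by 0.53 on the log2 scale, with KO above WT within each sex. *Mob1a* was higher by 0.35 and *Stk3* by 0.30, both with KO above WT in males. *Wwc1* had a difference of -0.51 and *Nf2* of -0.44, both with KO below WT in males. The other 5 genes lay between -0.17 (*Mob1b*) and 0.07 (*Taok1*), among which *Lats2* and *Taok1* had KO above WT in females. How often other genes separate in this way within a sex was not counted. Over both sexes the 6 KO values overlapped the 6 WT values for all 10 genes.

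Within one sex none of the 10 genes was called by limma on rescaled TPM. In males, where 23.9% of all tested genes were called, 4 of the 10 had an unadjusted p under 0.05, against 35.7% of all tested genes. The lowest limma adjusted p in males was 0.0844, for *Wwc1* (log2 difference -0.62). In females, where 26.0% were called, 2 of the 10 had an unadjusted p under 0.05, against 37.9% of all tested genes. The lowest limma adjusted p in females was 0.0773, for *Nf2* (log2 difference -0.50).

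The direction within each sex depended on the scale for several genes. *Sav1* was higher in KO in both sexes on both scales, with log2 differences of 0.32 in males and 0.32 in females on rescaled TPM and 0.83 and 0.63 on deposited TPM. *Wwc1* had negative values throughout, -0.62 and -0.51 on rescaled TPM and -0.07 and -0.18 on deposited TPM. *Mob1b* turned in both sexes, from -0.32 and -0.20 to 0.21 and 0.11. *Nf2* turned in males alone, from -0.47 to 0.05, and was -0.50 and -0.19 in females. Of the 10 genes, 3 had a positive value in males on rescaled TPM and 9 on deposited TPM, and in females 4 and 8. On deposited TPM *Stk3*, *Sav1* and *Mob1a* were called in males, 3 of 10 against 46.1% of all tested genes, and *Sav1* in females, 1 of 10 against 33.8%.

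Between males and females, 4.32% of all tested genes were called in WT and 0.0896% in KO. In WT none of the 10 cascade genes was called by limma between the sexes, 5 had an unadjusted p under 0.05 on rescaled TPM, against 23.8% of all tested genes, and all 5 had positive differences (male minus female). These were *Wwc1* (0.54), *Lats2* (0.40), *Mob1b* (0.39), *Lats1* (0.35) and *Taok1* (0.35) on the log2 scale, with limma adjusted p from 0.102 to 0.204. On deposited TPM the same 5 genes had values from 0.15 to 0.32, and the one gene of the 10 with an unadjusted p under 0.05 was *Sav1* (-0.35, limma adjusted p = 0.177), against 25.6% of all tested genes. In KO none of the 10 was called between the sexes by limma and none had an unadjusted p under 0.05, against 5.59% of all tested genes (lowest limma adjusted p 0.845). The interaction of genotype and sex, called for 0.831% of all tested genes, was called by limma for none of the 10 and none had an unadjusted p under 0.05, against 7.60% of all tested genes. On rescaled TPM the value farthest from 0 was that of *Lats2*, whose log2 difference between genotypes was -0.25 in males and 0.06 in females (interaction -0.31, limma adjusted p = 0.853). On deposited TPM *Lats2* had 0.23 in males and 0.34 in females (interaction -0.11), and the value farthest from 0 was that of *Mob1a* (interaction 0.42, limma adjusted p = 0.688).

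Of 73 other Hippo pathway genes tested on rescaled TPM, 26 were called (35.6%, against 39.3% of all tested genes), 21 higher and 5 lower in KO, with a median log2 difference of 0.10. The counts of the 5 lists that follow stand against 21.3% of all tested genes called higher and 18.0% called lower. Among kinases beside the core, 3 of 11 rose and 0 fell (median 0.02). *Map4k4*, a kinase that can phosphorylate LATS in parallel to the MST kinases, rose from 2.67 ± 0.769 to 9.35 ± 1.92 rescaled TPM (SD, n = 6 each), with no overlap (log2 difference 1.501, limma adjusted p = 9.00e-06). *Mark4*, which phosphorylates components of the core, also rose (log2 difference 0.43, limma adjusted p = 0.00567). Close relatives of the cascade genes were looked at as well. *Taok2* (0.14), *Taok3* (-0.18), *Stk38* (0.00) and *Stk38l* (0.02) were not called on rescaled TPM, and *Wwc2*, the paralog of *Wwc1*, rose (log2 difference 0.32, limma adjusted p = 0.0164). On deposited TPM *Taok2* (0.56, limma adjusted p = 0.00188), *Stk38* (0.44, limma adjusted p = 0.0133) and *Wwc2* (0.69) were called higher in KO, and *Taok3* (0.26) and *Stk38l* (0.43) were not called.

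Junction and polarity regulators had 11 of 24 members higher and 2 lower (median 0.24). *Amot*, which encodes a YAP-binding angiomotin, rose from 1.59 to 4.00 (log2 difference 0.96, limma adjusted p = 9.90e-05). Its relative *Amotl2*, a known YAP target, fell from 10.5 to 6.57 (log2 difference -0.59, limma adjusted p = 0.0023; -0.19 and 0.309 on deposited TPM). The polarity gene *Lin7c* fell by 0.29 on the log2 scale (limma adjusted p = 0.0354), a direction that turned to 0.14 on deposited TPM. Its call was lost without any 1 of 8 libraries (WT male 2 or 3, WT female 1 or 2, KO male 1 or 2, KO female 1 or 3), with limma adjusted p from 0.0559 to 0.0871.

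Rassf adaptors and genes of the STRIPAK phosphatase, which opposes the MST kinases, had 2 of 17 members higher and 1 lower (median 0.06). *Rassf3* (0.56) and *Rassf2* (0.43) rose, and *Mob4*, a STRIPAK subunit, had a log2 difference of -0.34 (limma adjusted p = 0.00587) that was 0.09 on deposited TPM. *Rassf2*, at 0.425 ± 0.165 rescaled TPM in WT (SD, n = 6), was below the 0.5 TPM of the filter there. It passed the filter through its level in KO, 0.928 ± 0.307 rescaled TPM (SD, n = 6). *Rassf2* was not called among later animal numbers only (0.37, limma adjusted p = 0.0568). Its log2 difference reached 0.96 with a pseudocount of 0.1 and 1.13 with voom on the recovered reads. The *Rassf3* call, at a limma adjusted p of 0.0495, was lost in 17 of 26 alternatives, among them without any 1 of the WT females or KO females, WT male 1 or 2, or KO male 3 (0.0600 to 0.114). Turnover and 14-3-3 genes had 3 of 15 higher and 1 lower (median 0.10). *Ywhah*, a 14-3-3 gene, rose from 52.8 ± 5.47 to 107.8 ± 5.23 rescaled TPM (SD, n = 6 each; log2 difference 1.02, limma adjusted p = 1.61e-06). *Csnk1e*, a casein kinase of the type that primes YAP for degradation, rose by 0.87 on the log2 scale, and *Itch*, a ubiquitin ligase known to act on LATS1, fell from 24.1 to 16.98 rescaled TPM (log2 difference -0.48, limma adjusted p = 0.000649). On deposited TPM *Itch* had a log2 difference of -0.05 (limma adjusted p = 0.701).

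Co-activators and their partners had 2 of 6 members higher and 1, *Yap1*, lower (median -0.03). *Wwtr1*, which encodes TAZ, rose from 6.61 ± 0.963 to 11.96 ± 0.942 rescaled TPM (SD, n = 6 each; log2 difference 0.78, limma adjusted p = 4.53e-05), with every KO library above every WT library. *Tead1*, which encodes a DNA-binding partner of both co-activators, rose by 0.66 on the log2 scale (limma adjusted p = 0.00424). On deposited TPM the pathway lists had no call lower in KO apart from *Yap1*, and 7 of 11, 17 of 24, 11 of 17, 11 of 15 and 3 of 6 members were higher, in the order described, against 50.1% of all tested genes called higher.

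**Figure D4:**
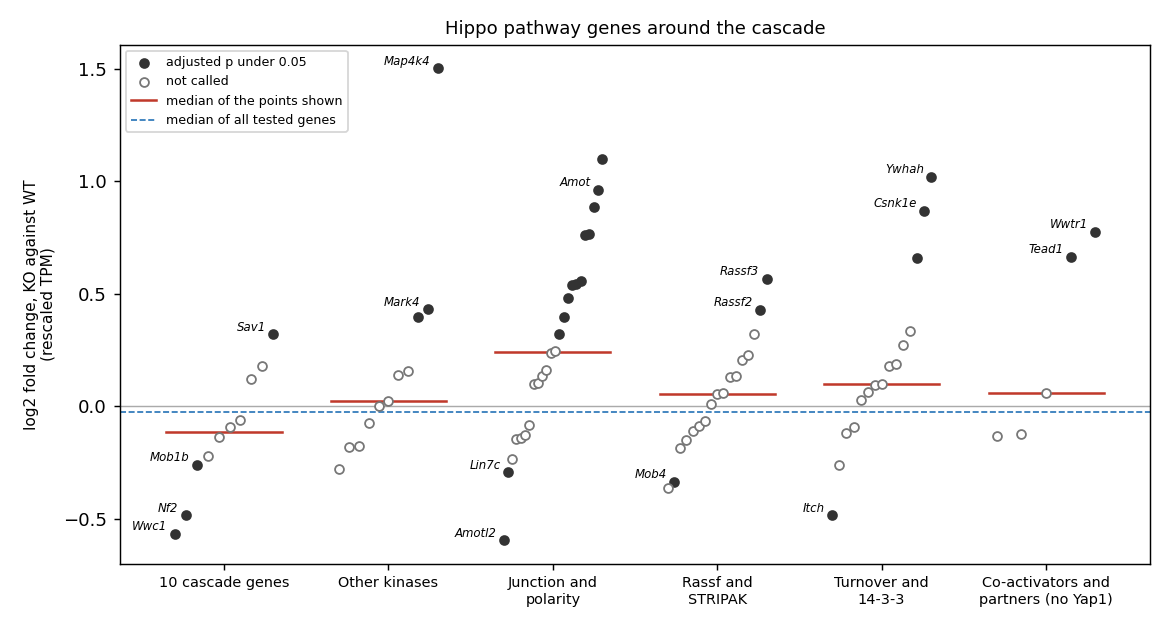
Log2 difference between KO and WT on rescaled TPM (vertical axis) of the 10 cascade genes and of 5 lists of other Hippo genes, filled where the adjusted p was under 0.05, with Yap1 left out of the co-activators and of their plotted median. Cascade genes lie between -0.57 and 0.32, and the largest rise among the other genes is that of Map4k4, at 1.501.

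Markers of several liver cell types moved with genotype. Their calls are on rescaled TPM, where 21.3% of all tested genes were called higher and 18.0% lower, and their sums are of deposited TPM, where the median gene was 0.35 higher in KO on the log2 scale. Kupffer cell and macrophage markers had 9 of 10 tested genes called higher and 0 lower, and their summed deposited TPM ranged from 72.7 to 236 in WT and from 349 to 727 in KO. Stellate cell and fibroblast markers had 5 of 10 higher and 1 lower (69.0 to 185.6 in WT, 201.5 to 496 in KO). Bile duct cell markers had 3 of 7 higher and 1 lower (49.0 to 81.8 in WT, 290 to 759 in KO). The median log2 difference of these 7 markers on rescaled TPM was 0.11, so the rise of their sum was not that of the typical marker. This median was 1.57 for the macrophage list and 0.96 for the stellate cell and fibroblast list. Hepatocyte markers had 0 of 9 higher and 5 lower (99344 to 134936 in WT, 67389 to 92244 in KO), so the markers of the labelled tissue were high in every library. Endothelial markers had 0 of 10 higher and 1 lower, and their sums overlapped (75.5 to 118 in WT, 48.4 to 185 in KO). Lymphocyte markers had 1 of 6 higher and 0 lower, with sums of 3.53 to 10.7 in WT and 7.67 to 16.8 in KO and *Trbc2* at 0 in every library. Neutrophil markers had 1 of 6 higher and 0 lower, with sums of 0.449 to 22.0 in WT and 13.4 to 48.1 in KO and *Ly6g* at 0 in every WT library. On deposited TPM, where 50.1% of all tested genes were called higher, the markers called higher and lower were 10 and 0 for macrophages, 7 and 0 for stellate cells and fibroblasts, and 5 and 1 for bile duct cells. They were 1 and 4 for hepatocytes, 1 and 1 for endothelium, 1 and 0 for lymphocytes and 4 and 0 for neutrophils. The part of these shifts in the differences of *Sav1*, *Mob1b*, *Nf2*, *Wwc1* and the other pathway genes was not tested.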

How the data were processed

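Whole-liver RNA from 12 mice was sequenced, and the authors deposited 1 table of TPM per gene and mouse, per the file headers. The submitters' processing notes name build GRCm38 and edgeR; the aligner and counter are not given in the sources used here. The deposited TPM columns each sum to 1000000. Reads per gene were estimated from the whole-number steps of TPM times a gene length, which gave a length for 15157 of 15163 genes above 0 in at least 6 libraries (tolerance 0.05). TPM were rescaled by median-of-ratios factors and taken as log2(TPM + 1). The 12278 genes with a mean deposited TPM of at least 0.5 were tested with limma 3.58.1 in R 4.3.3 (intensity trend, two-sided, threshold 0.05). The genotype fit used all 12 libraries with sex as covariate; the other comparisons came from 1 model of the 4 group means. Exact permutation tests covered 400 arrangements. Fold changes on this scale are understated for low genes. The authors' log2 fold change and FDR columns were deposited in the same table. Scripts were tested on simulated data.

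Samples were grouped by their titles, and replicate numbers follow deposition order and pair no mice. That the mice are separate animals is taken from the titles. The text names the 10 members, *Yap1*, *Wwtr1*, 5 close relatives, and up to 2 called rises and 2 called falls of each other list. The members, lists and tests were chosen with earlier results of these data known. All 12 sample columns matched 1 sample each. Protein sequences were not analysed here, and 1 gene that the naming rule selected is not reported here. Paralogs can share reads, and how such reads were assigned is not given in the sources used here.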

Additional observations from a re-analysis of the deposited data

Results flagged for a closer look

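In 5 of 44 groups of 6 libraries examined, 1 library lay far from the other 5 relative to the range of its group. The cut-off is meant to flag about 1 in 20 independent groups by chance. The groups examined share libraries and hold the same genes on both scales, so the 5 flags cannot be set against that rate. In 4 of the 5 the library was KO male 3. On rescaled TPM it had 12.1 for *Lats1*, with the next KO library at 8.91. On deposited TPM it had 16.0 for *Lats1*, with the next at 9.995, 58.0 for *Wwc1*, with the next at 31.7, and 13.7 for *Taok1*, with the next at 9.11. The fifth was WT female 3, with the lowest deposited TPM of *Wwc1* among WT libraries, 22.4 against 34.0 in the next.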

How the results depend on the processing

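The genotype comparison called 3 to 5 of the 10 genes in every alternative, beside 29.3% to 54.9% of all tested genes, and *Sav1* kept its direction and call in all 26. Which other genes were called depended on the scaling. *Nf2* and *Wwc1* lost their calls on deposited TPM and on TPM rescaled without the summed *Mup* genes or without the 20 most abundant genes, where *Nf2* had -0.07, -0.19 and -0.14 and *Wwc1* -0.12, -0.25 and -0.20 as log2 differences. *Stk3* and *Mob1a* were called higher on all 3 of these scales, and *Lats2* and *Taok1* on deposited TPM but not on the other two. All tested genes were called at 54.9%, 44.7% and 48.9%. On these 3 scales, in that order, the log2 difference changed sign for *Stk4* (0.27, 0.15, 0.20), *Lats1* (0.19, 0.074, 0.12), *Lats2* (0.29, 0.18, 0.22), *Mob1b* (0.16, 0.041, 0.092), *Taok1* (0.35, 0.23, 0.28), *Lin7c* (0.14, 0.017, 0.069) and *Taok3* (0.26, 0.13, 0.18). *Mob4* changed sign on deposited TPM (0.090) and without the 20 genes (0.018). These alternatives differ only in the scaling of the libraries. *Taok2* was called on these 3 scales (0.56, 0.44, 0.49), and *Stk38* on deposited TPM (0.44) and without the 20 genes (0.36); *Stk38l* reached 0.43 on deposited TPM without a call. *Stk38*, near 0 on rescaled TPM, became -0.074 with array weights and -0.073 with later animal numbers only, and ran from -0.047 to 0.049 when 1 library was left out. *Stk38l* became -0.11 with array weights and ran from -0.090 to 0.10.

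In males the same 3 scales called 3, 2 and 3 members, against 46.1%, 30.1% and 39.2% of all tested genes, and array weights 3, against 31.1%. Leaving out 1 library called 0 to 1 (*Wwc1* without KO male 3, against 19.4%). In females the 3 scales called 1, 1 and 1, against 33.8%, 30.3% and 30.5%, and array weights 4, against 50.7%. Leaving out 1 library called 0 to 1 (*Nf2* without WT female 3 or KO female 2, against 21.8% and 21.7%). The cause was not tested. The 6 genes not called stayed uncalled when 1 library was left out, but their log2 differences moved: *Stk3* between 0.053 and 0.17, *Stk4* -0.19 and -0.071, *Lats1* -0.28 and -0.18, *Lats2* -0.17 and -0.020, *Mob1a* 0.098 and 0.24, and *Taok1* -0.097 and -0.020. The *Mob1b* to *Mob1a* log2 ratio ran from -0.54 to -0.42, that of *Stk3* to *Stk4* from 0.16 to 0.37 and *Yap1* from -3.42 to -3.30 when 1 library was left out. Limma with voom on the recovered reads and the fit on later animal numbers were chosen after seeing the data, and called 4 and 3 of the 10, against 39.5% and 33.2% of all tested genes. In the latter *Mob1b* lost its call (-0.27, limma adjusted p = 0.0718). No paired analysis was possible because replicate numbers follow deposition order. Among the 10 genes counting error, up to 8.39% at the lowest count, limits *Stk3* most. For *Yap1* it reached 16.0% at the lowest count.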
